A study of Mus musculus with 70 samples.

Results

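A set of 10 genes of the surfactant system and of the alveolar type 2 cell, the cell that makes lung surfactant, was followed through mouse lung and brain RNA-seq: Sftpa1, Sftpb, Sftpc, Sftpd, Abca3, Slc34a2, Lamp3, Lpcat1, Napsa and Nkx2-1. They are 10 of 50789 genes with a row of raw read counts, found by matching Ensembl identifiers, version numbers removed, to mouse gene symbols. In Cic-S-KO lung the transcripts of both surfactant collectins were higher than in WT, Sftpd 1.48-fold and Sftpa1 1.27-fold. The hydrophobic surfactant proteins Sftpb and Sftpc did not pass the same test, nor did 5 genes of lipid handling and secretion, while the regulator Nkx2-1 passed it narrowly. In Cic-L-KO lung 0 of the 10 passed, where 4.89% of all tested genes did. For Cic-S-KO lung that share was 15.7%. The 2 knockouts lay 0.02 apart in Nkx2-1 on the log2 scale (edgeR adjusted p = 0.892), so its narrow pass does not separate them.

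Surfactant is a film of phospholipid and protein that lowers surface tension in the air spaces and keeps them open at the end of a breath. Type 2 cells build its lipid, store it with the small hydrophobic proteins SP-B and SP-C in lamellar bodies, and release it by exocytosis. The collectins SP-A and SP-D, encoded in the mouse by Sftpa1 and Sftpd, are larger, water-soluble, carbohydrate-binding proteins of innate defence that also take part in surfactant turnover, and they are secreted by airway club cells as well.

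The study deleted single isoforms of Capicua (Cic), a transcriptional repressor made in a short and a long form. WT, Cic-L-KO and Cic-S-KO mice were compared in lung at postnatal day 6 and in cortex and cerebellum at 12 weeks. The WT animals were littermates of both knockout lines, pooled, and the labels do not say which line each came from or how the alleles were made. There were 8 libraries of each genotype in lung and in each brain region, except 7 of Cic-S-KO in cortex and 7 in cerebellum. All lung libraries carried the batch label 1 and all brain libraries the label 2, so tissue, age and batch cannot be told apart. The labels number the replicates without saying that each is a separate animal; p-values measure the spread between these samples.

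The 70 libraries held 17798655 to 35523037 counted reads each. Cic itself was read at 138.5 ± 11.3 CPM (counts scaled to a common library size; SD, n = 8) in WT lung, 172.0 ± 10.5 in Cic-S-KO lung and 134.9 ± 5.62 in Cic-L-KO lung, and counts summed over a gene do not show the loss of 1 isoform. The Y-linked gene Ddx3y was over 10 CPM in 4 of 8 libraries of each lung group, so the sexes were balanced over the genotypes.

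All 10 genes were abundant in every lung library and 8 were at or below 4 CPM in every brain library, so the lung libraries carry the type 2 cell markers that the gene set names. The 10 genes took 1.96 ± 0.173% of all counts in WT lung (SD, n = 8), 2.12 ± 0.215% in Cic-S-KO lung and 1.96 ± 0.119% in that of Cic-L-KO, against 0.0112% to 0.0155% in the brain libraries. Sftpc alone took 1.39 ± 0.143% in WT lung. In bulk lung, a change in the number of type 2 cells and a change of RNA in each of them cannot be told apart. Lamp3 is also a marker of mature dendritic cells and Nkx2-1 is made by airway epithelium too.

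Per kilobase of exon in WT lung, Sftpc led with 13432 ± 1318 CPM per kb (SD, n = 8). Sftpb followed at 662.0 ± 35.5 and Sftpa1 at 422.3 ± 56.3. Slc34a2 was at 237.7 ± 14.4 and Sftpd at 174.9 ± 37.3, and the ranges of these neighbours overlapped. Lamp3 at 130.1 ± 8.01 and Lpcat1 at 116.4 ± 4.56 also overlapped. Nkx2-1 at 68.2 ± 7.59, Napsa at 47.8 ± 3.69 and Abca3 at 31.4 ± 3.24 closed the order, each below all libraries of the gene before it.

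Sftpa1 (ENSMUSG00000021789.14) spans chr14:41131782-41136452 on the plus strand of GRCm38, and Sftpd (ENSMUSG00000021795.10) spans chr14:41172214-41185149 on the minus strand. The 2 collectin genes thus end 35.8 kb apart, facing each other. Sftpc (ENSMUSG00000022097.4) lies on the same chromosome at chr14:70520949-70524081, minus strand, and Sftpb (ENSMUSG00000056370.15) at chr6:72304610-72314371, plus strand. Of the 10 genes, 4 share bases with an annotated gene on the other strand, namely Abca3 with Gm25618 and D330041H03Rik, Slc34a2 with Gm17182, Napsa with Gm15396 and Nkx2-1 with Gm26973. Whether counting used strand is not given in the sources used here, so these 4 values may hold reads of the partner.

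Promoter sequence from RefSeq (GRCm38.p6) was matched for 7 of the 10 genes and not for Sftpc, Sftpd or Napsa. The windows just before the start of Sftpa1, whose transcript differed between genotypes, and of Sftpb, whose transcript did not pass the test, are shown for contrast. Both are on the plus strand and read 5′ to 3′. The Sftpb window ends at the base before its RefSeq start. The Sftpa1 window ends at the base before its GENCODE start, which leaves out the last 6 bases before the RefSeq start. Capitals mark CACTTG, 1 form of the core bound by NKX2-1, searched on both strands (CAAGTG on the other). Other forms of the core were not searched, so a window without capitals may still hold a site.
Sftpa1 promoter, chr14:41131538-41131781: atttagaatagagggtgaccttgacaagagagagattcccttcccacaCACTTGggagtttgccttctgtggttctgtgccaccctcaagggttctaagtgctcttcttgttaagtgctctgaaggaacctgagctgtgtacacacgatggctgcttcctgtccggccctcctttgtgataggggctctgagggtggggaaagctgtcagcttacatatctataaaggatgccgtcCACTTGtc
Sftpb promoter, chr6:72304360-72304609: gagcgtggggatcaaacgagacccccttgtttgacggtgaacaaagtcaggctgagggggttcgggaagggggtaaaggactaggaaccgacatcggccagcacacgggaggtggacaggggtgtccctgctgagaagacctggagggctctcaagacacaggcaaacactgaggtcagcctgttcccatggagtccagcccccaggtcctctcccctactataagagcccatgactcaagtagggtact
Sftpa1 held CACTTG at 202 to 197 and at 14 to 9 bases before the RefSeq start. In the 250 bases before that start, 1 of 7 genes held it on either strand, namely Sftpa1. Among all 32851 such windows, 11.61% held it. The Capicua octamers TGAATGAA, TGAATGGA, TCAATGAA and TCAATGGA, on either strand, were in 0 of the 7 windows and in 3.19% of all windows. These are matches of letters in a short window and do not show whether a factor binds.

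Each gene was tested over all 16695 genes that passed the low-count filter in lung with edgeR's quasi-likelihood test, at a Benjamini-Hochberg adjusted p under 0.05, and all 10 genes passed the filter. Between Cic-S-KO and WT, 3 of the 10 genes were called, all 3 higher, where 15.7% of all tested genes were called. The median log2 fold change of the 10 was 0.10, against -0.001 over all tested genes, and 7 of the 10 had a positive value.

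**Figure D1:**
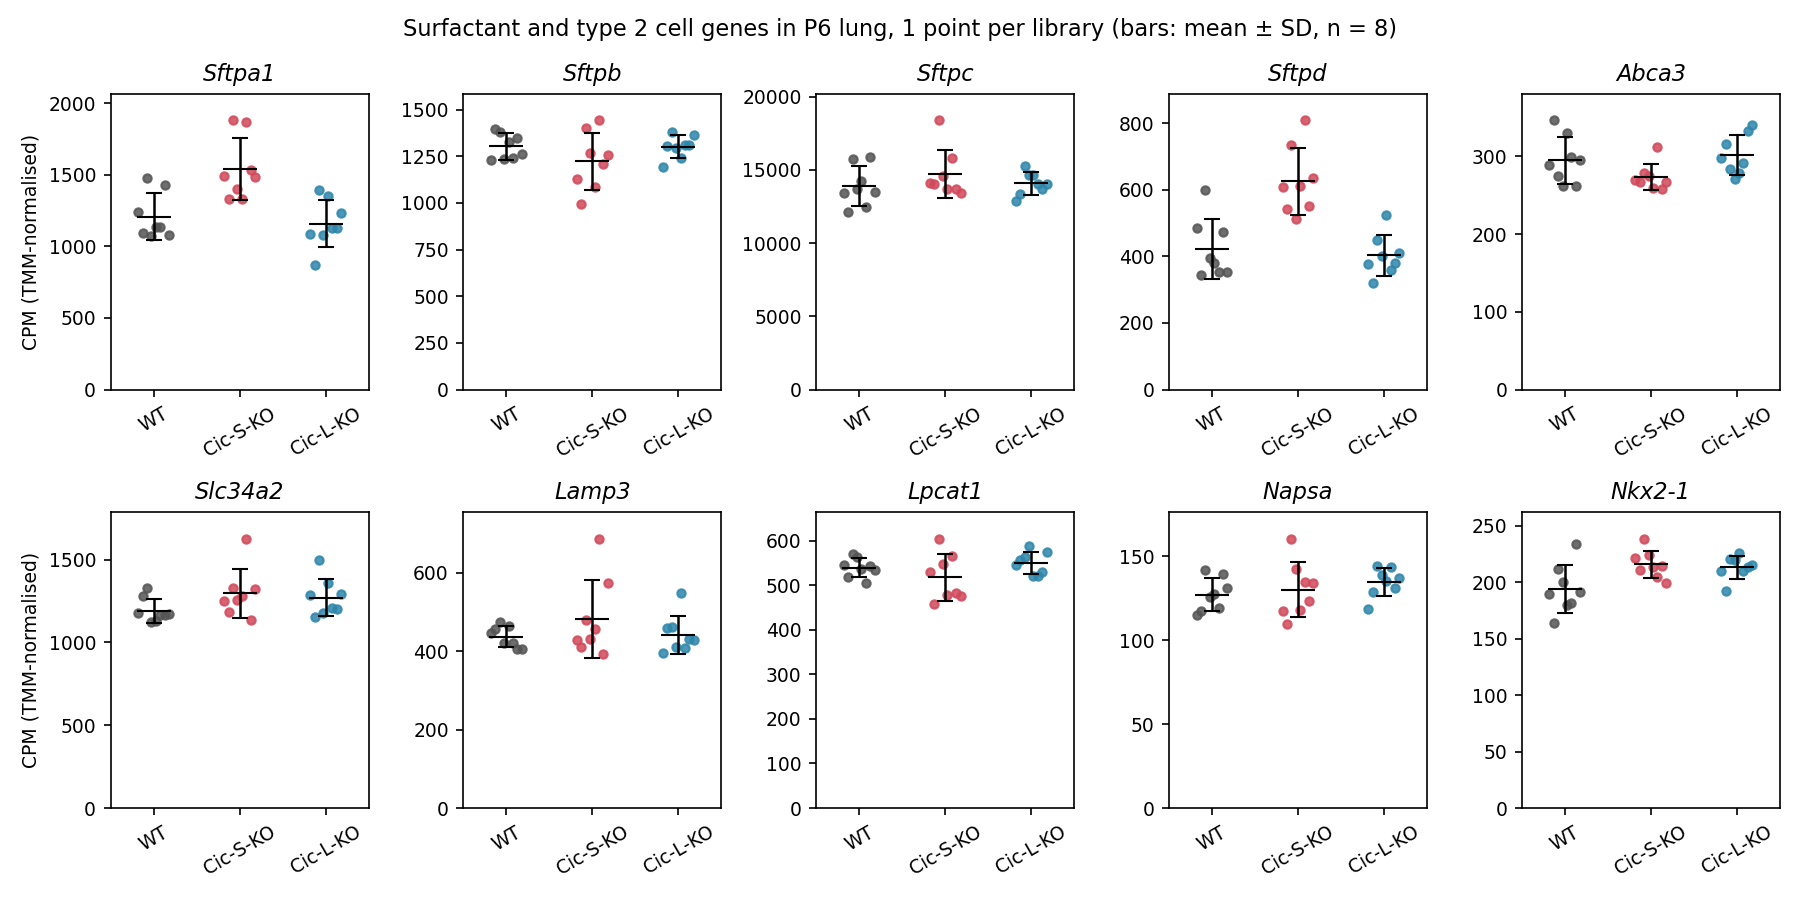
Each panel shows 1 gene in lung as TMM-normalised CPM on a linear axis from 0, with a point for each of 8 libraries per genotype and a bar for the mean ± SD. Sftpd and Sftpa1 lie higher in Cic-S-KO with partial overlap, while the other panels overlap widely.

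Sftpd, the collectin whose loss makes surfactant lipid build up in mice, ranged from 343.1 to 600.1 CPM in WT lung, with a median of 387.0. It ranged from 512.6 to 808.4 in Cic-S-KO, with a median of 609.6, and from 321.2 to 523.5 in Cic-L-KO, with a median of 391.2. The WT group held 1 library, replicate 3 at 600.1 CPM, well inside the Cic-S-KO range, and 5 of 8 Cic-S-KO libraries lay above every WT library. The log2 fold change of Cic-S-KO over WT was 0.57 ± 0.118 (SE; 95% interval 0.32 to 0.81; edgeR adjusted p = 0.00237).

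Sftpa1, which encodes the most abundant collectin of surfactant, moved the same way. It ranged from 1074 to 1477 CPM in WT lung with a median of 1133, and from 1330 to 1879 in Cic-S-KO with a median of 1486. In Cic-L-KO it ranged from 872.0 to 1395 with a median of 1129. The groups overlapped at the 2 highest WT libraries, and 5 of 8 Cic-S-KO libraries lay above every WT library. The log2 fold change was 0.35 ± 0.0923 (SE; 95% interval 0.16 to 0.54; edgeR adjusted p = 0.0113).

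Sftpc, cut from its precursor to the SP-C that only type 2 cells make, ranged from 12160 to 15883 CPM in WT and from 13444 to 18382 in Cic-S-KO, with medians of 13596 and 14069. The log2 fold change was 0.08, with a 95% interval of -0.04 to 0.21 and an edgeR adjusted p of 0.383. Sftpb, whose product packs lipid in the lamellar body and is needed to breathe air at birth, ranged from 1230 to 1398 CPM in WT and from 992.2 to 1443 in Cic-S-KO. Its log2 fold change was -0.09 (95% interval -0.21 to 0.03; edgeR adjusted p = 0.305). For both hydrophobic proteins the Cic-S-KO libraries spread more widely than the WT libraries and the groups overlapped.

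The collectins were also set against the hydrophobic proteins inside each library, as log2 ratios of raw counts that do not depend on library size. These 4 ratios were chosen after the values above were seen, and they share numerators and denominators. The ratio of Sftpa1 to Sftpb averaged 0.33 ± 0.10 in Cic-S-KO and -0.12 ± 0.16 in WT (log2; SD, n = 8), and all 8 Cic-S-KO libraries lay above all 8 WT libraries. That difference of 0.45 had a two-sided exact permutation p of 0.000155, the smallest that 12870 assignments allow, or 0.000466 adjusted over 12 tests. Sftpa1 to Sftpc differed by 0.27 between Cic-S-KO and WT with the same exact p and again 8 of 8 libraries above WT. Sftpd to Sftpb differed by 0.67 and Sftpd to Sftpc by 0.49, each with 7 of 8 libraries above WT, at exact permutation p of 0.000311 and 0.000622 (adjusted 0.000533 and 0.000932).

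In Cic-L-KO against WT the 4 ratios differed by -0.09 to -0.05, with exact permutation p from 0.255 to 0.668. Between the knockouts the ratio of Sftpa1 to Sftpb differed by 0.51 and that of Sftpd to Sftpb by 0.73, with adjusted exact permutation p of 0.000466 and 0.000533. In these libraries the collectin transcripts stood higher relative to both hydrophobic proteins in Cic-S-KO than in either other genotype. Because the genes were chosen from edgeR results of these same libraries, the p-values of the ratios are no separate support.

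**Figure D2:**
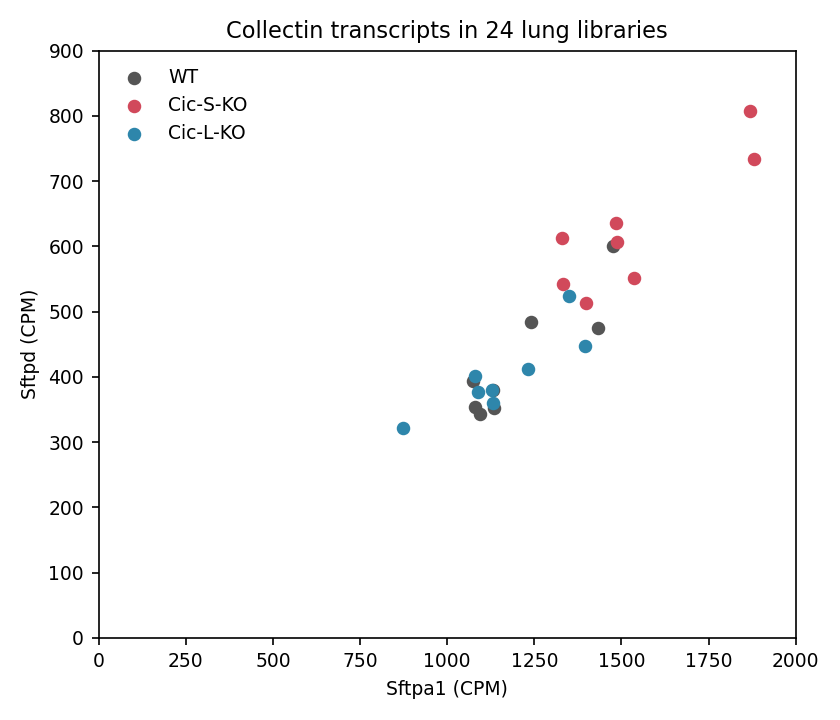
Sftpd plotted against Sftpa1 as CPM, 1 point per lung library, coloured by genotype. Pearson's r inside a group is 0.899 in WT and 0.879 in Cic-L-KO, while the 0.841 of Cic-S-KO rests on 2 libraries; 7 of 8 Cic-S-KO libraries have more Sftpd than every Cic-L-KO library.

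Sftpa1 and Sftpd were compared across the libraries of each genotype. Pearson's r of log2 CPM over 8 libraries was 0.899 for the WT group, 0.841 for Cic-S-KO and 0.879 for Cic-L-KO. The exact permutation p were 0.00499, 0.0137 and 0.00752, or 0.0225, 0.0330 and 0.0225 adjusted over 12 relations of Sftpa1. Spearman's rho was 0.619, 0.571 and 0.762, and no adjusted permutation p of rho passed 0.05. Without the 2 libraries farthest from the median of Sftpa1, r was 0.792 in WT, 0.866 in Cic-L-KO and 0.198 in Cic-S-KO, where the relation rests on those 2 libraries. Sftpa1 and Sftpc had r of 0.804 in WT and 0.811 in Cic-S-KO, but 0.063 and -0.28 without the 2 farthest libraries. Sftpa1 and Sftpb had r of 0.864 in Cic-S-KO (0.639 without the 2 farthest), 0.450 in WT and 0.218 in Cic-L-KO. Sftpa1 and Nkx2-1 had r of 0.885 in Cic-L-KO, 0.738 in WT and 0.248 in Cic-S-KO. Of the partners of Sftpa1 compared, Sftpd thus had the highest r in WT alone.

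Over all pairs of the 10 genes, with genotype means removed, Sftpa1 with Sftpd had the highest r across the 24 lung libraries, 0.859. Abca3 with Nkx2-1 had the lowest, -0.622. Abca3 stood apart from the set, since its r with the mean standardised level of the 10, again with genotype means removed, was 0.131, where the other 9 lay between 0.435 for Nkx2-1 and 0.839 for Sftpa1. Each gene is itself part of that mean, and the libraries share their depth and preparation, so these are descriptions.

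Abca3, the transporter that pumps phospholipid into lamellar bodies, ranged from 262.1 to 346.1 CPM in WT lung (median 292.3). It ranged from 258.3 to 312.4 in Cic-S-KO (median 268.3) and from 270.9 to 340.1 in Cic-L-KO (median 294.8). Replicate 6 was the highest Cic-S-KO library at 312.4 CPM, above the medians of both other groups; the other 7 were at or below 278.5, and 5 of 8 lay below every Cic-L-KO library. The log2 fold change was -0.11 against WT (95% interval -0.23 to 0.01; edgeR adjusted p = 0.199) and -0.14 against Cic-L-KO (95% interval -0.26 to -0.02; edgeR adjusted p = 0.113), and neither passed.

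Lpcat1, the acyltransferase that remodels phosphatidylcholine into the saturated lipid of surfactant, had a log2 fold change of -0.06 in Cic-S-KO against WT (95% interval -0.16 to 0.04; edgeR adjusted p = 0.428). Its libraries ranged from 504.7 to 569.0 CPM in WT and from 458.4 to 603.6 in Cic-S-KO, so the WT range lay inside the other. Slc34a2, the sodium-dependent phosphate transporter of the apical membrane, ranged from 1121 to 1328 CPM in WT and from 1137 to 1624 in Cic-S-KO. Its log2 fold change was 0.12 (95% interval -0.002 to 0.25; edgeR adjusted p = 0.170).

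Lamp3, a membrane protein of the lamellar body, ranged from 405.4 to 474.0 CPM in WT and from 392.0 to 685.9 in Cic-S-KO, with medians of 433.9 and 443.3. The log2 fold change was 0.14 (95% interval -0.04 to 0.33; edgeR adjusted p = 0.280). Napsa, an aspartic protease that helps process the SP-B precursor, had a log2 fold change of 0.03 (95% interval -0.10 to 0.16; edgeR adjusted p = 0.779), from 115.1 to 141.7 CPM in WT and 109.4 to 160.3 in Cic-S-KO. None of these 5 lipid-handling and secretory genes passed the test, and no 95% interval among them reached a log2 fold change of 0.35, the value of Sftpa1. The interval of Sftpa1 itself, 0.16 to 0.54, overlapped those of Lamp3 and Slc34a2, so these 2 genes are not set apart from it.

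Nkx2-1, the homeodomain factor that drives lung epithelial identity and the surfactant promoters, was called higher in Cic-S-KO by a small margin. It ranged from 164.1 to 234.3 CPM in WT with a median of 190.5, and from 199.0 to 238.4 in Cic-S-KO with a median of 213.9. Only 1 of 8 Cic-S-KO libraries lay above every WT library. The log2 fold change was 0.15 ± 0.0536 (SE; 95% interval 0.04 to 0.26; edgeR adjusted p = 0.0490), and this call held in 6 of 25 other settings. Cic-L-KO lung had nearly the same level, 191.8 to 225.5 CPM with a median of 214.0, at a log2 fold change of 0.14 over WT (95% interval 0.03 to 0.25) that did not pass (edgeR adjusted p = 0.138). The levels of the 2 knockouts were 0.02 apart on the log2 scale (edgeR adjusted p = 0.892).

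**Figure D3:**
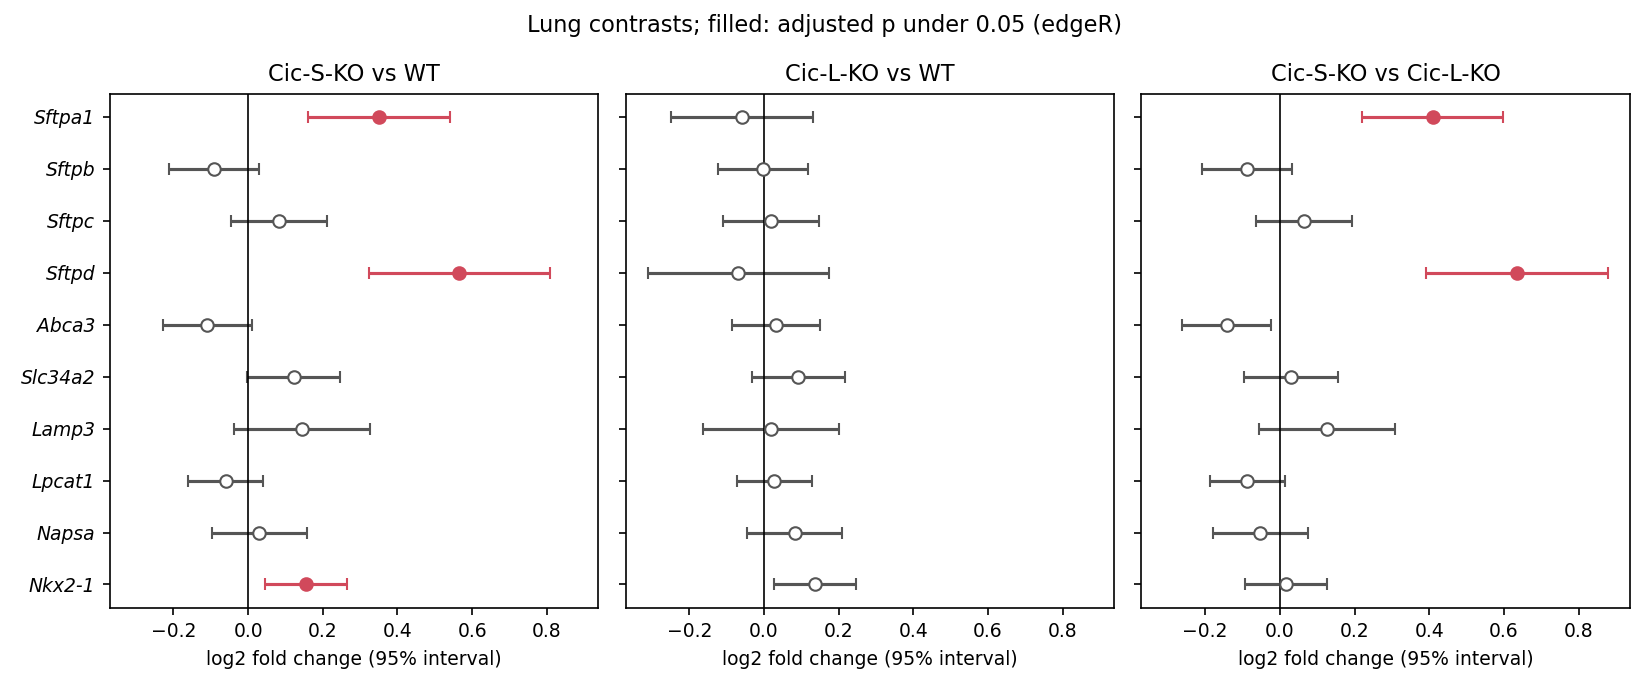
Log2 fold changes of the 10 genes in lung with 95% intervals, for each knockout over WT and for Cic-S-KO over Cic-L-KO. Sftpd and Sftpa1 stand to the right of 0 in both Cic-S-KO comparisons and near 0 in Cic-L-KO against WT.

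In Cic-L-KO against WT lung, 0 of 10 genes were called by edgeR, where 4.89% of all tested genes were; 1 of the 10, Nkx2-1, had an unadjusted p under 0.05, and DESeq2 also called 0. The median log2 fold change of the 10 was 0.02. Sftpd had a log2 fold change of -0.07 (95% interval -0.31 to 0.17; edgeR adjusted p = 0.789) and Sftpa1 one of -0.06 (95% interval -0.25 to 0.13; edgeR adjusted p = 0.767). Both intervals stop below the values that the same genes had in Cic-S-KO. Sftpb at 0.00 (95% interval -0.12 to 0.12) and Sftpc at 0.02 (95% interval -0.11 to 0.15) were held to a narrower range. The remaining 5, Abca3, Slc34a2, Lamp3, Lpcat1 and Napsa, lay between 0.02 and 0.09, with edgeR adjusted p from 0.410 to 0.938.

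The knockouts were also compared with each other directly, using the same Cic-S-KO libraries as against WT. This called 2 of the 10 genes, both higher in Cic-S-KO, where 12.2% of all tested genes were called. Sftpd was 1.55-fold higher (log2 0.63 ± 0.118 SE; 95% interval 0.39 to 0.88; edgeR adjusted p = 0.000848), with 7 of 8 Cic-S-KO libraries above every Cic-L-KO library. Sftpa1 was 1.33-fold higher (log2 0.41 ± 0.0924 SE; 95% interval 0.22 to 0.60; edgeR adjusted p = 0.00420), with 6 of 8. The other 8 lay between -0.14 for Abca3 and 0.13 for Lamp3.

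Other genes of the surfactant pathway were read from lists, beside the 15.7% of all tested genes called in Cic-S-KO against WT (9.99% higher) and the 4.89% called in Cic-L-KO against WT (2.62% higher). Of 16 genes of surfactant lipid synthesis, 1 was called in Cic-S-KO against WT, the fatty acid binding protein gene Fabp5 (91.5 ± 10.5 to 111.3 ± 21.1 CPM; log2 0.28; edgeR adjusted p = 0.0321), and the list's median was 0.02. In Cic-L-KO 0 of 16 were called. Of 9 regulators of the type 2 cell, 1 was called in Cic-S-KO, the epithelial factor Grhl2 (log2 0.24; edgeR adjusted p = 0.0151), and 0 in Cic-L-KO. With so few genes, the Cic-S-KO counts of 1 of 16 and 1 of 9 cannot be told from the 15.7% called over all genes. Against Cic-L-KO, Foxa1, a pioneer factor of lung epithelium, was higher in Cic-S-KO (log2 0.35; edgeR adjusted p = 0.0142).

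Of 11 genes of surfactant processing, secretion and clearance, 4 were higher and 2 lower in Cic-S-KO, with a median of 0.13, where 9.99% of all tested genes were higher and 15.7% were called in either direction. Rab3d, a small GTPase of secretory vesicles, rose from 44.6 ± 1.27 CPM in WT to 57.3 ± 3.80 in Cic-S-KO (log2 0.36; edgeR adjusted p = 1.26e-05) and to 55.9 ± 2.71 in Cic-L-KO (log2 0.33; edgeR adjusted p = 2.17e-05). Csf2ra and Csf2rb, the GM-CSF receptor chains through which alveolar macrophages are set to clear surfactant, rose in Cic-S-KO by 0.45 and 1.02 on the log2 scale (edgeR adjusted p = 0.00488 and 0.00208). Atp6v1b2, a proton pump subunit, rose by 0.31 (edgeR adjusted p = 0.00165). Snap23, of the exocytic machinery, and Adgrf5, the receptor that restrains the surfactant pool, were the 2 lower genes, both at -0.18. In Cic-L-KO 3 were higher, Rab3d, the phospholipid flippase Atp8a1 at 0.19 and Anxa2 at 0.20, and 0 lower, where 4.89% of all tested genes were called.

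Of 15 other type 2 cell markers, 5 were higher and 1 lower in Cic-S-KO against WT, with a median of 0.14, where 9.99% of all tested genes were higher and 15.7% were called in either direction. Muc1, a membrane mucin, went from 199.3 ± 17.8 to 256.1 ± 41.4 CPM (log2 0.36; edgeR adjusted p = 0.00239), and Hc, complement component C5, from 495.8 ± 95.6 to 665.3 ± 130.5 CPM (log2 0.42; edgeR adjusted p = 0.0195). Lyz2, a lysozyme that macrophages also make, rose by 0.46 (edgeR adjusted p = 0.0217). Lgi3 was the lower one at -0.18 (edgeR adjusted p = 0.0239). In Cic-L-KO the chemokine gene Cxcl15 at 0.32 and Sfta2 at 0.31 were the 2 called higher (edgeR adjusted p = 0.0278 and 0.0242), where 2.62% of all tested genes were.

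Markers of other lung cells moved in the same libraries. In Cic-S-KO against WT, 7 of 9 macrophage genes, 6 of 6 tested goblet genes of 7 listed, 6 of 6 neutrophil genes, 7 of 8 general epithelial genes, 4 of 8 ciliated genes and 2 of 6 club genes were higher, with 0 lower in each, where 9.99% of all tested genes were higher. Median log2 fold changes were 0.68, 2.76, 1.46, 0.29, 0.53 and 0.70. The summed macrophage genes ranged from 283.5 to 444.3 CPM in WT and from 417.1 to 1259 in Cic-S-KO. The summed goblet genes ranged from 8.39 to 76.4 CPM and from 22.5 to 1031. The summed club genes, of cells that make collectins too, ranged from 3093 to 4466 CPM and from 4088 to 6219. No listed gene with a row of counts was at 0 in all lung libraries. Tfcp2l1, Prdx6, Chil1, Igfbp2, Col4a3, Marco, Cxcr2 and Col3a1 were listed but had no row under that symbol, so their levels are unknown. The part of these other lung cells in the collectin values was not tested.

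Among those epithelial genes, the secretoglobin Scgb3a2 of club cells went from 644.9 ± 151.2 CPM in WT to 1153 ± 265.2 in Cic-S-KO (log2 0.84; edgeR adjusted p = 0.00412). Cldn10 was also called (log2 0.56; edgeR adjusted p = 0.000350). The most abundant club gene, Scgb1a1, did not pass (3026 ± 365 to 3544 ± 479 CPM; log2 0.23; edgeR adjusted p = 0.147). Nor did Cyp2f2 (0.03), Bpifa1 (1.97) and Scgb3a1 (1.86), with edgeR adjusted p of 0.910, 0.0820 and 0.128. Foxj1, the master factor of motile cilia, went from 43.6 ± 8.38 to 75.8 ± 13.8 (log2 0.80; edgeR adjusted p = 0.00208). The general epithelial keratin Krt8 rose by 0.34 and the adhesion gene Cdh1 by 0.19 (edgeR adjusted p = 0.000617 and 0.00841). Endothelial genes moved the other way, with 4 of 7 lower and 1 higher, where 956 of all 16695 tested genes were lower. Of 6 mesenchymal genes, 1 was higher and 1 lower, with a median of -0.07. Alveolar type 1 cell genes had 1 of 11 called in Cic-S-KO, Hopx at 0.15, where 15.7% of all tested genes were called. Against this, 6 of 11 were higher in Cic-L-KO, led by Lmo7 at 0.41 and Hopx at 0.46, where 2.62% of all tested genes were higher. In Cic-L-KO the summed type 1 genes ranged from 6018 to 6525 CPM, above the WT range of 5045 to 5817.

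**Figure D4:**
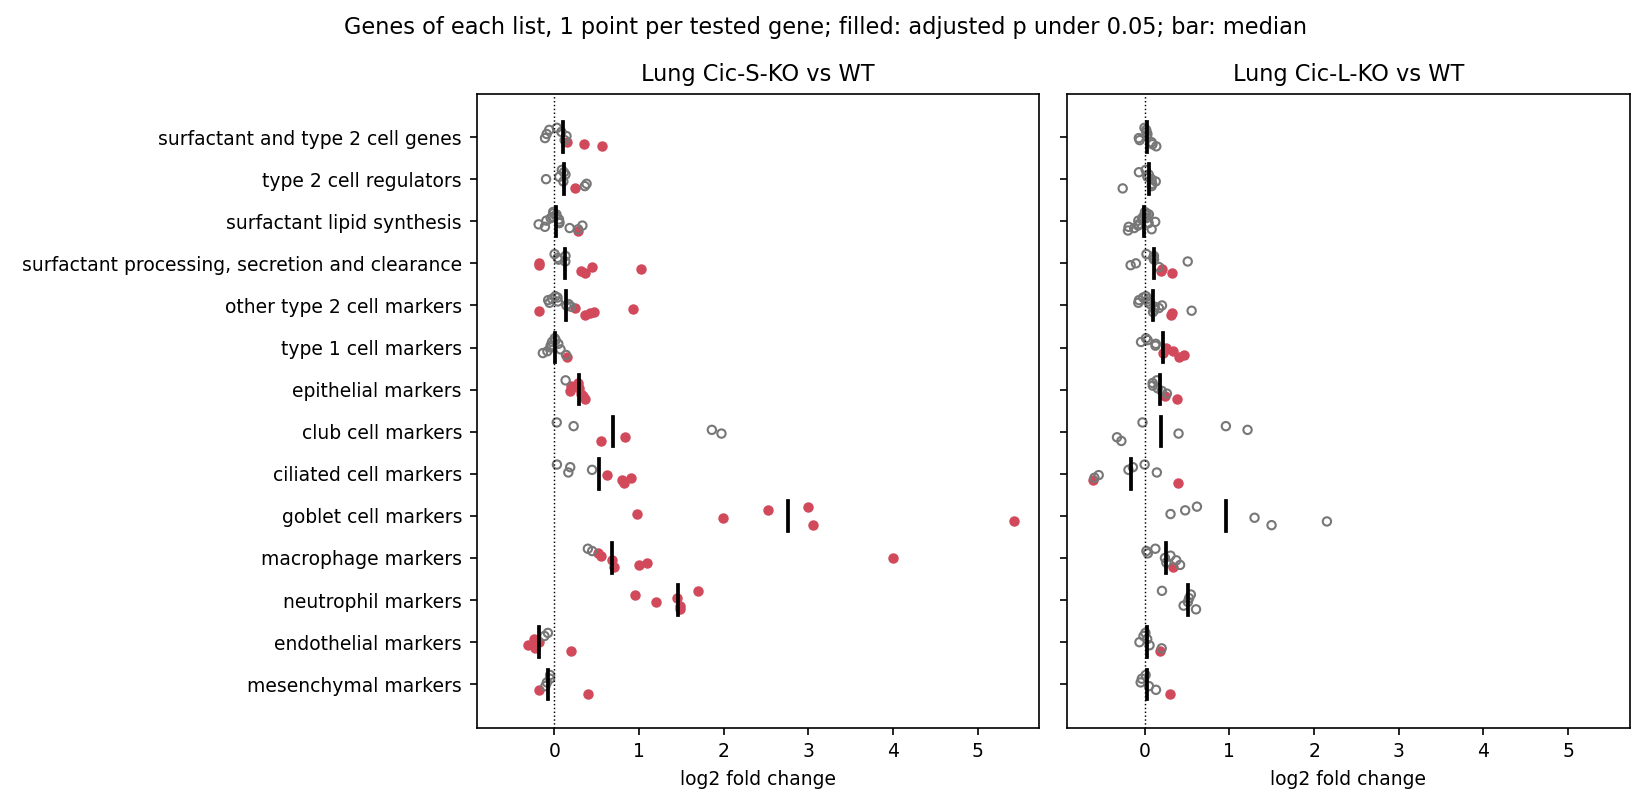
Log2 fold changes of single genes in the lung lists, with Cic-S-KO and Cic-L-KO each against WT. Filled points passed an adjusted p of 0.05 and bars mark medians; in Cic-S-KO the 10 surfactant genes lie between -0.11 and 0.57, and the medians of the goblet, neutrophil and macrophage lists are 2.76, 1.46 and 0.68.

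Outside the 10, the genes whose log2 CPM followed their mean standardised level most closely over the 24 lung libraries were Mlc1 (r = 0.864), Med11 (0.816), Dram1 (0.812), Apoc1 (0.770), Pi4k2b (0.769), Lyz2 (0.764), Nip7 (0.762) and Cd101 (0.758), out of 16685 ranked. With genotype means removed their r was between 0.747 and 0.870. Dram1 and Lyz2 were on the list of type 2 cell markers.

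The brain served as background, with CPM normalised inside each tissue, so levels are set across tissues only roughly. Of the 10 genes, 5 passed the low-count filter in cortex (Sftpc, Abca3, Lpcat1, Napsa and Nkx2-1) and 3 in cerebellum (Abca3, Lpcat1 and Napsa). Sftpa1, Sftpb, Sftpd, Slc34a2 and Lamp3 never exceeded 8 reads in any of the 46 brain libraries. Sftpc, at 2 to 22 reads per cortex library, had a median of 0.385 CPM there against 14039 over all lung libraries.

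Abca3 and Lpcat1 were the 2 genes of the set with a clear brain level. Abca3 ranged from 80.8 to 100.9 CPM in cortex and from 75.2 to 99.3 in cerebellum, below its lung median of 281.3. Lpcat1 ranged from 40.4 to 50.3 CPM in cortex and from 30.6 to 38.5 in cerebellum. Napsa stayed between 0.572 and 2.41 CPM over both regions. Nkx2-1, which in the forebrain marks interneurons and the ventral regions they come from, ranged from 0 to 3.87 CPM in cortex and had 1 read in 1 of 23 cerebellum libraries and 0 in the others.

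None of the tested genes of the set was called in brain by edgeR. Called were 0 of 5 in cortex of Cic-S-KO, where 6.53% of all genes were, and 0 of 5 in cortex of Cic-L-KO, where 43.2% were. In cerebellum the counts were 0 of 3 for Cic-S-KO, where 8.23% of all genes were called, and 0 of 3 for Cic-L-KO, where 21.5% were. At an unadjusted p under 0.05 the 4 counts were 2, 0, 0 and 1, and DESeq2 called 0 in each. In cortex, Abca3 was at 87.2 ± 4.34 CPM in WT (n = 8), 93.1 ± 5.02 in Cic-S-KO (n = 7) and 91.8 ± 4.67 in Cic-L-KO (n = 8), with log2 fold changes of 0.09 and 0.07 over WT (edgeR adjusted p = 0.146 and 0.115). Nkx2-1 in cortex had the largest value, 1.58 ± 0.695 (SE) in Cic-S-KO, on levels of 0.186 to 3.87 CPM against 0 to 1.52 in WT, and did not pass (edgeR adjusted p = 0.176).

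**Figure D5:**
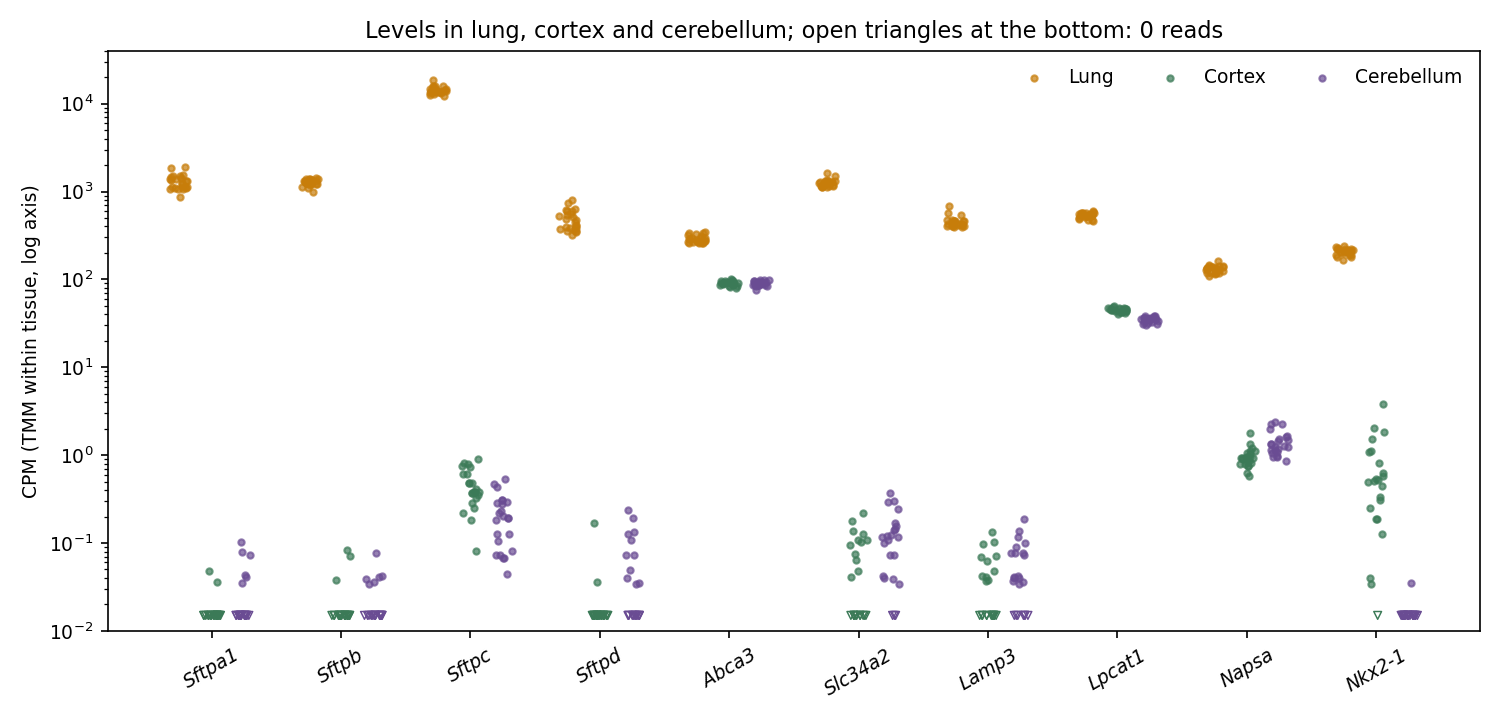
CPM of the 10 genes in lung, cortex and cerebellum on a log axis, 1 point per library, with open triangles for libraries at 0 reads. Abca3 and Lpcat1 stay at 30.6 CPM or more in brain, while the 4 surfactant proteins drop below 1 CPM.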

How the data were processed

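Total RNA from flash-frozen tissue (miRNeasy) was polyA-selected and sequenced on Illumina machines, per the labels' protocols. The authors deposited raw counts per gene for 70 libraries; STAR 2.7 and GRCm38.p6 are named in the submitters' processing notes, and the counting program, annotation and strand setting are not given in the sources used here. GENCODE M21 (GRCm38) gave symbols, exon lengths and coordinates and matched 50639 of 50789 identifiers. The members and lists were chosen with earlier results of these data known.

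Each tissue was fitted over 3 genotypes with edgeR 4.0.16 in R 4.3.3: filterByExpr (minimum count 10), TMM, robust quasi-likelihood test, Benjamini-Hochberg over all tested genes, threshold 0.05. CPM are TMM-normalised. Log2 CPM used a prior count of 2, except in the correlations of Sftpa1 inside each genotype, which used none. Intervals are 95%. The method was tested on simulated data. Named were all members, at most 4 called genes per list and lung contrast by smallest p, and the 8 genes closest to the members' mean. Snap23, the club genes that did not pass and, in Cic-S-KO against WT, Adgrf5 were named after their values were seen. No 2 libraries of a group were identical, and chi-square per degree of freedom was at least 4.17. Listed genes with no value were not analysed here. Alternatives included DESeq2 1.42.0, other filters and scalings, Ddx3y as covariate, a replicate block and leaving out each library.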

Additional observations from a re-analysis of the deposited data

Results flagged for a closer look

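In 5 of 54 groups of libraries the highest or lowest value stood apart from the rest by Dixon's gap criterion, where chance gives about 1 in 20 groups, or 2.7. In Cic-S-KO lung, replicate 6 had the highest Abca3, 312.4 CPM against 278.5 in the next library, and the highest Slc34a2, 1624 against 1329. In Cic-L-KO lung, replicate 5 had the highest Lamp3, 547.3 CPM against 460.5, and replicate 2 the lowest Nkx2-1, 191.8 against 210.1. In WT cortex, replicate 2 had the highest Nkx2-1, 1.52 CPM against 0.630.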

How the results depend on the processing

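Sftpa1 and Sftpd were called in 25 of 25 alternatives in Cic-S-KO against WT lung (log2 0.30 to 0.39, edgeR or DESeq2 adjusted p 0.00139 to 0.0467, and log2 0.50 to 0.65, adjusted p 3.17e-05 to 0.00869) and in 25 of 25 against Cic-L-KO. Nkx2-1 in Cic-S-KO kept its call in 6 of 25 (log2 0.12 to 0.19, adjusted p 0.0053 to 0.130) and lost it in 13 of 16 fits that left out 1 library. In Cic-L-KO lung the count of called members was 0 to 1 over the leave-one-out fits, with Nkx2-1 called without WT replicate 7 (0.18, adjusted p 0.0242). In Cic-L-KO cortex it was 1 with a mean of at least 50 counts (Abca3, 0.09, adjusted p 0.0449) and 0 to 1 over the leave-one-out fits, with Sftpc called without Cic-L-KO replicate 2 (-0.89, adjusted p 0.0295) and Abca3 without replicate 4 (0.10, adjusted p 0.0438). The cause was not tested. No called value changed direction. The 4 collectin ratios of Cic-S-KO against WT had exact permutation p of at most 0.00124 with any library left out. Their genes were chosen from edgeR results of these same libraries, so these p-values are no separate support.

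With the replicate number as a block, the lung counts of called members were 3 for Cic-S-KO, 0 for Cic-L-KO and 2 between knockouts, and 0 in each brain contrast. With genotype means removed, same-numbered lung libraries had a mean r of 0.141 for Cic-S-KO with WT, 0.160 for Cic-L-KO with WT and 0.136 between knockouts. Other numbers had -0.020, -0.023 and -0.019. The same-number r varied widely (lowest 0.0112 for Cic-S-KO with WT lung, -0.053 for Cic-L-KO), and the main fit did not take the numbers as pairs. In each lung group replicates 1 to 4 were those with Ddx3y over 10 CPM, so the number also carries sex. Each library correlated best with its own number in 4, 4 and 2 of 8 pairs in lung. The block moved the count over all genes from 817 to 1285 in Cic-L-KO lung, from 1108 to 627 in Cic-S-KO cortex and from 1370 to 591 in Cic-S-KO cerebellum. The Cic-S-KO cortex count was also 732 without the low-count filter, 654 with the compared genotypes alone and as low as 461 without Cic-S-KO replicate 6. Cic-L-KO lung fell to 517 without WT replicate 6, and Cic-S-KO cerebellum to 883 without Cic-S-KO replicate 6. Depth limits statements on the 5 genes with at most 8 reads per brain library.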
